A study of Homo sapiens with 18 samples.

Results

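The 49 genes described here are the Wnt ligands, their secretion factors, receptors, intracellular transducers, TCF/LEF transcription factors, nuclear partners, feedback regulators and target genes of a list given by symbol. The rule of the list uses no measured value, but the list was chosen with earlier results of these data known. Rows for 48 of them were found among the 18670 genes of a read count table of U937 and THP-1 cells. The level of DKK1, a secreted antagonist of the LRP co-receptors, was not analysed here.

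Wnt proteins are lipid-modified by PORCN, carried to the cell surface by WLS, and bind a Frizzled receptor together with the co-receptor LRP5 or LRP6. Dishevelled proteins then relay the signal, beta-catenin escapes destruction by the APC, AXIN and GSK3 complex, and beta-catenin joins TCF/LEF factors at target genes. R-spondins, bound by LGR4, LGR5 or LGR6, add to the signal by taking the ubiquitin ligases RNF43 and ZNRF3 away from Frizzled receptors, and several components (AXIN2, LGR5, RNF43, ZNRF3, NKD1, SP5, NOTUM, APCDD1) are widely used as feedback targets of beta-catenin. In acute myeloid leukemia this pathway has been linked to the self-renewal of leukemic cells.

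Both cell lines are established, human and monocytic, and the labels give them as acute myeloid leukemia. U937 cells carried either an empty vector or shS100A9, a lentiviral knockdown of the calcium-binding protein gene S100A9. THP-1 cells carried either an empty vector or OES100A9, a lentiviral overexpression of S100A9, and each of these was profiled without drug and after Adavivint at 1 µM for 36 hours. Adavivint, also called lorecivivint, is a small-molecule Wnt pathway inhibitor reported to act on the CLK2 and DYRK1A kinases. Every group had passed lentiviral transduction and puromycin at 2 µg/mL, which started 48 hours later and lasted 24 hours or more. Each of the 6 groups held 3 libraries. The labels name no vehicle for the untreated groups and do not say whether the libraries of a group were separate cultures. The p-values therefore reflect only the spread among these libraries, and that spread may be technical.

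The libraries held 38433169 to 84409062 counts. S100A9 followed the labels: 4.54 to 7.13 CPM (the gene's counts scaled to a common library size) in U937 empty vector libraries against 0.0600 to 0.407 with shS100A9, and 3.92 to 9.32 CPM in THP-1 empty vector libraries against 26.4 to 29.7 with OES100A9. It stood at 12.5 to 14.7 CPM in empty vector cells and 100.1 to 110.2 CPM in OES100A9 cells under Adavivint. Myeloid markers summed to 1734 to 2913 CPM per library, with 10 to 12 of 12 at 1 CPM or more in each group. Epithelial and kidney markers summed to 0.647 to 3.66 CPM, stromal to 0.538 to 1.43, lymphoid to 6.90 to 14.7, platelet to 0.209 to 1.07 and erythroid to at most 0.468. The B-cell marker MS4A1 and the erythroid marker HBB each had no count in 5 of the 6 groups. Of 6 lymphoid markers 4 had rows, and 2 of these stood at 1 CPM or more in every group. Of 8 epithelial and kidney markers 6 had rows, and 1 reached 1 CPM in both U937 groups. Replicate 2 of U937 empty vector and replicate 3 of U937 shS100A9 stood apart from the other libraries of their groups (chi-square per degree of freedom of 135 to 225 against their partners, and 8.05 and 13.1 between the partners), so the U937 knockdown is given with and without both, and the comparison of the lines with and without the empty vector library.

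CPM values below use the TMM-scaled library sizes of all 18 libraries. Folds, standard errors (SE) and adjusted p-values come from edgeR's quasi-likelihood test fitted over all genes tested, and a gene is said to have risen, fallen or changed only at an adjusted p below 0.05. In bulk RNA less RNA per cell and fewer cells that express a gene cannot be told apart.

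A member is called silent in a group where it stayed below 0.1 CPM in each of the 3 libraries. In U937 cells 13 of 48 members were silent with the empty vector (27.1%, beside 24.8% of all 18670 genes) and 12 with shS100A9 (25%, beside 25% of all genes). In THP-1 cells LGR5 and LGR6 alone were silent with either vector (4.17%, beside 19.7% of all genes with the empty vector and 20.3% with OES100A9). At a mean of 10 CPM or more the lines were close, with 19 members in U937 and 18 in THP-1 empty vector cells (39.6% and 37.5%, beside 49.3% and 49.6% of all genes). These shares were not tested. In U937 empty vector cells the silent genes were the co-receptor LRP6, the receptors FZD3 and FZD8, the Wnt carrier WLS, the ligands WNT5A and WNT11, the transcription factor LEF1, the co-repressor TLE1, the R-spondin receptors LGR5 and LGR6, the inhibitors NKD2 and NOTUM, and the target gene SP5. Of these, 8 had no count in any library. In shS100A9 cells TLE1 and SP5 left that list, at up to 0.110 and 0.141 CPM, and PYGO1 joined it. Under Adavivint the silent members of THP-1 cells were WNT5A with empty vector, and WNT5A, FZD8 and NOTUM with OES100A9 (2.08% and 6.25%, beside 13.6% and 12.5% of all genes). A silent gene is one not detected above this level at the depth sequenced: 3 counts in a whole group, the number that a count of 0 allows, correspond to 0.0148 to 0.0245 CPM.

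**Figure D1:**
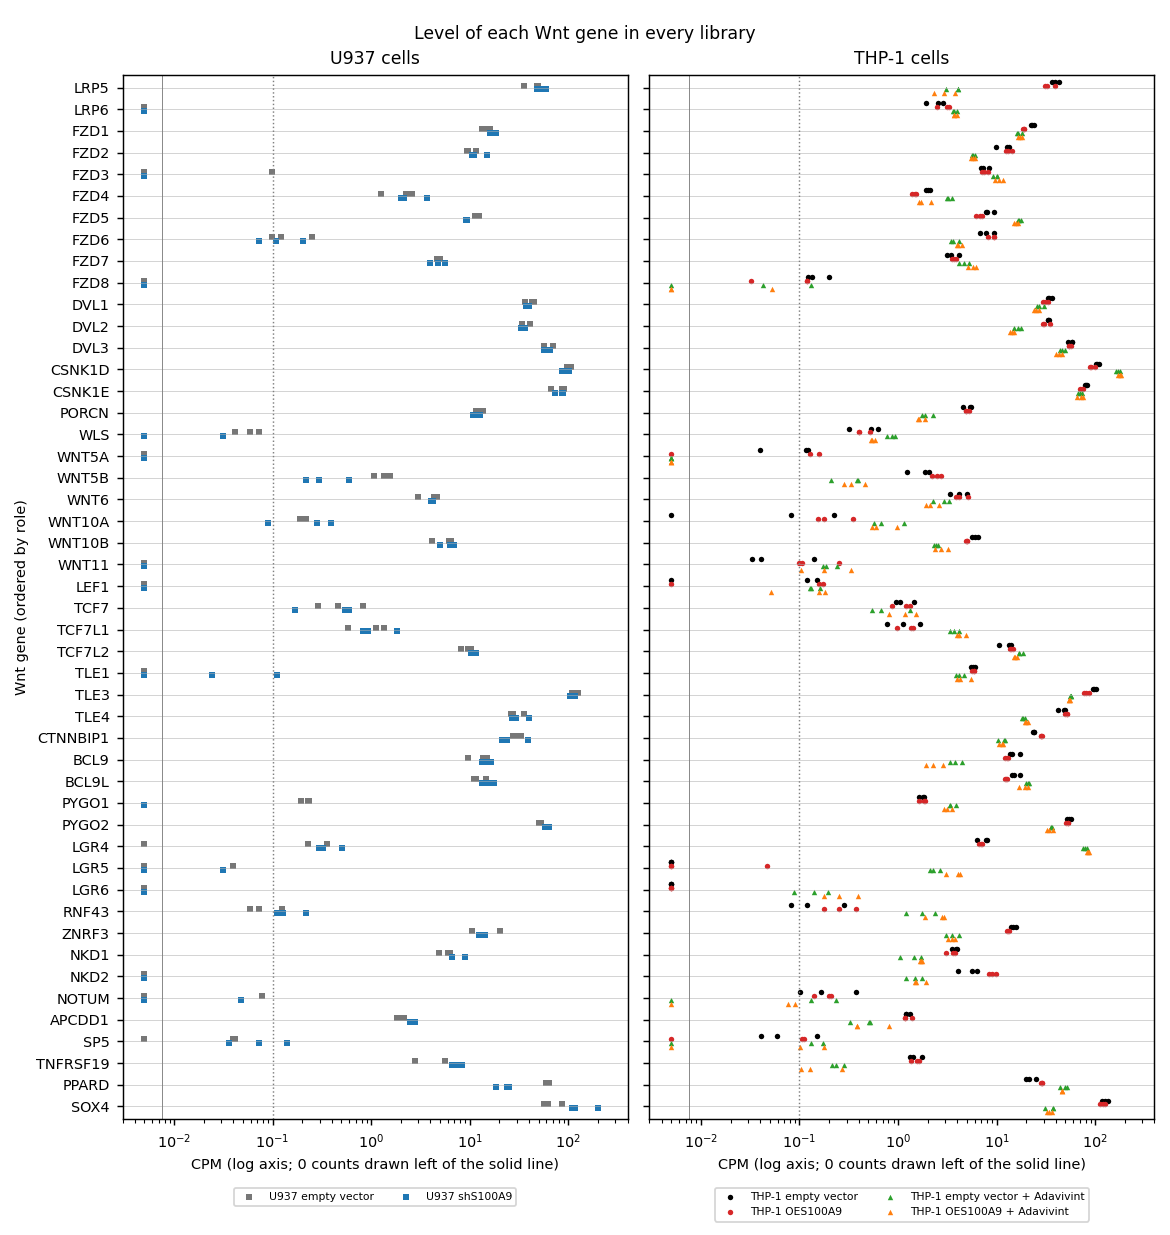
CPM of each of the 48 Wnt genes in every library (log axis), ordered by role, in U937 cells (left) and THP-1 cells (right); each point is 1 library, colours give the group, the dotted line marks 0.1 CPM and libraries with no count lie left of the solid line. LRP6, FZD8, WNT5A, WNT11, LEF1, LGR6 and NKD2 had no count in any U937 library, and LGR4 stood at 75.9 to 85.9 CPM in the Adavivint libraries.

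Levels per kilobase of exon allow genes to be set beside each other. In THP-1 empty vector cells the highest was SOX4, an HMG-box factor and reported Wnt target, at 21.5 CPM per kilobase. It was followed by the co-activator PYGO2 at 15.0, the casein kinases CSNK1E at 12.9 and CSNK1D at 9.56, and the Dishevelled genes DVL1 at 9.06 and DVL3 at 8.86 CPM per kilobase. LRP5 stood at 6.42 and LRP6 at 0.237 CPM per kilobase, so the LRP co-receptor message was mostly LRP5. Among Frizzled receptors FZD2 at 5.67 and FZD1 at 3.31 CPM per kilobase led, and FZD8 was last at 0.0375. Among TCF/LEF factors TCF7L2 at 1.89 CPM per kilobase led TCF7L1 at 0.270, TCF7 at 0.114 and LEF1 at 0.0167. Of the 6 Wnt ligands WNT6 led at 2.46 CPM per kilobase, with WNT10B at 2.31, WNT5B at 0.401 and WNT10A, WNT11 and WNT5A each under 0.0300. The feedback genes NOTUM and SP5 were at 0.0712 and 0.0403 CPM per kilobase. These levels are means of 3 libraries, and their order was not tested.

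Between the empty vector cells of the lines, 11 of the 38 members tested were higher in THP-1 (14.8% of all 13695 genes tested were) and 8 were lower (11.4% of all genes). With at least 2-fold difference, 8 were higher and 3 lower, against 8.67% and 2.84% of all genes. Most of these 8, among them LRP6, FZD3, FZD6, WLS, TLE1, LGR4 and NKD2, passed the filter on low counts only through THP-1. The filter thus partly fixed the counts of higher members, and their shares were not tested against those of all genes. Line, culture and vector backbone cannot be told apart here. Without U937 empty vector replicate 2, 14 members were higher and 11 lower (24.2% and 19.7% of 13909 genes), and 10 and 3 at 2-fold or more (10.2% and 2.90%). Of the members higher in THP-1, LRP6, FZD3, WLS, TLE1 and NKD2 were silent in U937, passed the filter on low counts only through THP-1 and so had to differ. They are given without a p. LRP6 had no count in U937 cells and 1.90, 2.55 and 2.89 CPM in THP-1 cells, at least 114-fold higher. TLE1, a Groucho co-repressor of TCF factors, had no count in U937 empty vector cells and 5.71, 5.56 and 6.09 CPM in THP-1, at least 269.6-fold higher. NKD2, which binds Dishevelled and restrains it, was likewise at 0 in U937 and at 4.11, 5.68 and 6.31 CPM in THP-1, at least 249.9-fold higher. In each of these 3 genes the libraries of the lines did not overlap.

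FZD6 was at 0.122, 0.0982 and 0.250 CPM in U937 and 6.82, 7.90 and 9.52 CPM in THP-1, 50.7-fold higher. FZD3 had counts in 1 U937 empty vector library only, at 0.0982 CPM, and stood at 6.99, 7.35 and 8.46 CPM in THP-1. LGR4, a receptor of R-spondins, was at 0, 0.354 and 0.229 CPM in U937 and 7.96, 6.30 and 7.85 CPM in THP-1. It was 36.2-fold higher in THP-1, and 59.4-fold higher without U937 empty vector replicate 2. FZD6 and LGR4 also passed the filter on low counts only through THP-1, so their p is not given. Both Frizzled genes and LGR4 were therefore near the limit of detection in 1 line and well expressed in the other. PYGO1 was 7.83-fold higher in THP-1, and WLS 8.25-fold higher against a silent U937 group. On the other side, PPARD, a nuclear receptor reported as a beta-catenin target, was 2.78-fold lower in THP-1 (adjusted p = 0.000198), TNFRSF19, a TNF receptor family member reported as a Wnt target, 3.13-fold lower, and PORCN, the Wnt acyltransferase, 2.45-fold lower. The other changes were below 2-fold: FZD1, TLE4 and SOX4 were higher and FZD5, TLE3, CTNNBIP1, NKD1 and APCDD1 lower in THP-1. These last 5 held in 1 of 6 fits that left out 1 library, with adjusted p up to 0.115 to 0.158, and TLE4 in 3 of 6, with adjusted p up to 0.0618.

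**Figure D2:**
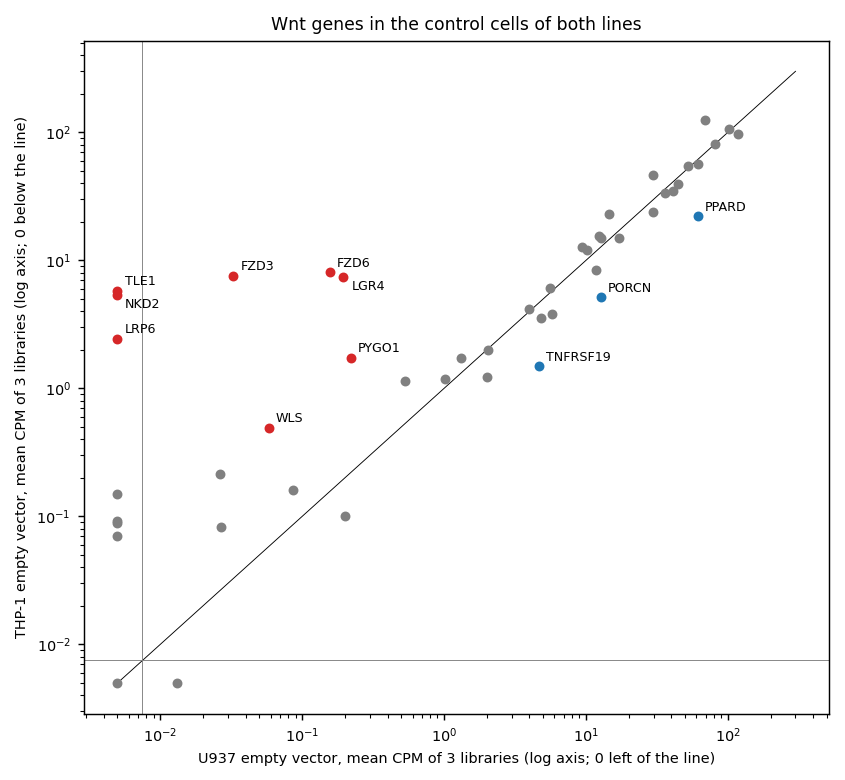
Mean CPM of each Wnt gene in U937 empty vector cells (x) and THP-1 empty vector cells (y), 3 libraries each, on log axes with 0 drawn outside the thin lines and the diagonal marking equal levels. Red and blue points are the 8 genes higher and the 3 genes lower in THP-1 by at least 2-fold; LRP6, TLE1 and NKD2 lie at 0 on the U937 axis.

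Adavivint changed most members. In empty vector cells 17 of 42 members tested rose (44.2% of all 15403 genes tested did), 24 fell (41.1% of all genes) and TCF7 alone did not pass the test. In OES100A9 cells 14 rose (43.4%) and 22 fell (41.3%). At 2-fold or more, 9 members rose (21.4%, against 25.8% of all genes) and 14 fell (33.3%, against 21.7%) with the empty vector. Among these 9, LGR5, RNF43, WNT10A and WNT11 were too low in untreated empty vector cells to pass the filter on low counts by themselves. The filter favoured their rise, so they carry no weight in this count. With OES100A9, 6 rose (14.3%, against 25.3%) and 14 fell (33.3%, against 22.8%). The median log2 fold change of the members was -0.38 with the empty vector and -0.29 with OES100A9, beside 0.06 and 0.04 over all genes tested. The drug comparisons of the vectors share no library, and 14 members rose in both, 22 fell in both and none moved in opposite directions. The share of all genes that did so in both was not determined. The drug altered a large share of all genes, so the members' counts describe them and do not set them apart. Treated and untreated libraries did not overlap in 41 of the 42 members with the empty vector and in 39 with OES100A9. The share of all genes without overlap was not determined. FZD8, WNT5A, LEF1, LGR6, NOTUM and SP5 were too low to be tested in THP-1 cells. Myeloid markers changed with the drug too. In empty vector cells the monocyte marker CD14 rose 58.6-fold, from a mean of 0.369 to 20.5 CPM, and the lysozyme gene LYZ 2.06-fold, while CD33, ITGAM, FCGR1A and CTSG fell 3.81-, 3.56-, 3.48- and 3.28-fold and ELANE 2.26-fold. With OES100A9 these 7 markers moved in the same directions, by 61.9-, 2.19-, 3.91-, 2.40-, 3.46-, 2.51- and 2.49-fold in that order. They are the markers that changed at least 2-fold, and the others differed more between the vectors. With the empty vector PTPRC and SPI1 rose, CSF1R fell, and MPO and CEBPA did not pass. With OES100A9 SPI1 and CEBPA rose, MPO fell, and PTPRC and CSF1R did not pass. The part of these changes in the members' values was not tested.

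**Figure D3:**
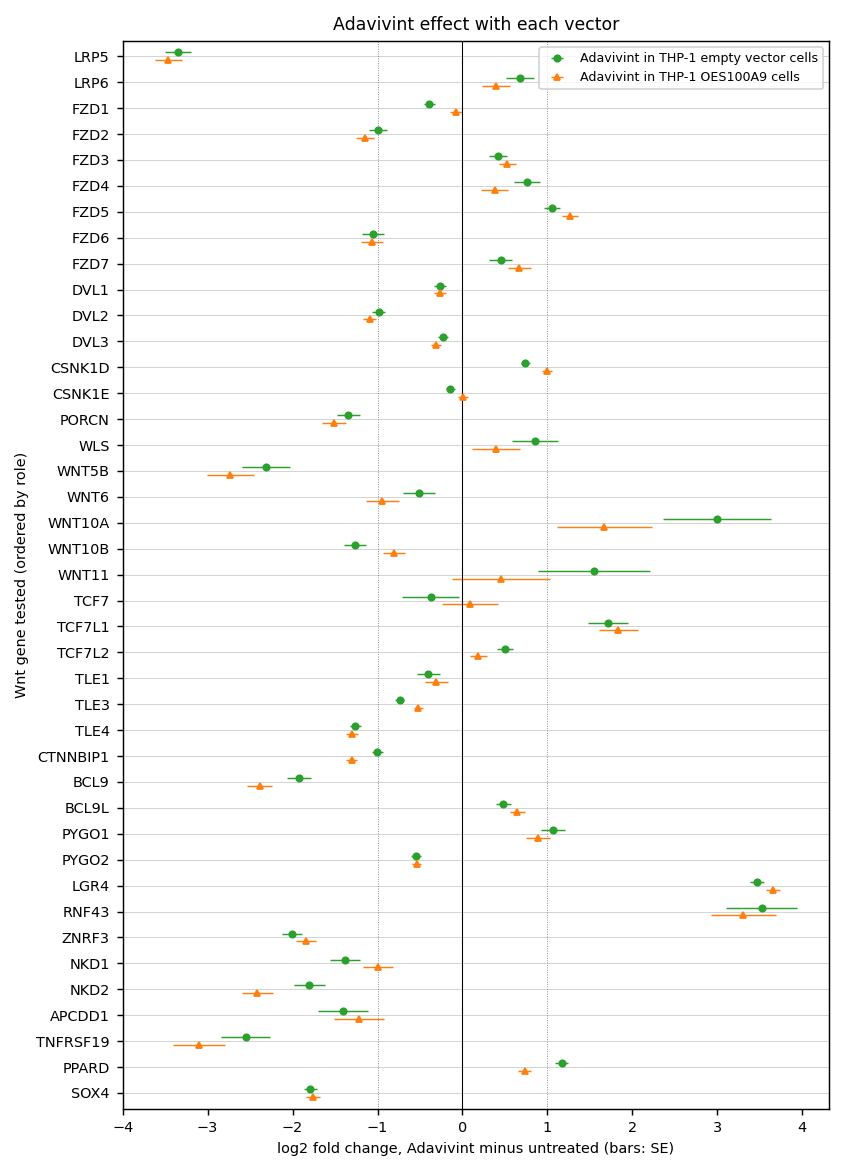
Log2 fold change of Adavivint against no drug for 41 of the 42 Wnt genes tested in THP-1 cells, ordered by role; circles are empty vector cells, triangles OES100A9 cells, bars are SE and dotted lines mark 2-fold. LGR5 is left out because it had no count in untreated empty vector cells; LGR4 and RNF43 lie farthest to the right and LRP5 farthest to the left.

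Of the R-spondin receptors LGR4 rose and LGR5 and LGR6 were detected with the drug, and the ubiquitin ligases RNF43 and ZNRF3 moved in opposite directions. LGR4 was at 7.96, 6.30 and 7.85 CPM in empty vector cells and 75.9, 78.3 and 83.7 CPM with Adavivint, 11.1-fold higher (log2 fold change 3.47, SE 0.083, adjusted p = 1.78e-13). In OES100A9 cells it went from 7.18, 6.64 and 7.00 to 83.1, 85.2 and 85.9 CPM, 12.6-fold (adjusted p = 1.10e-13). The treated and untreated libraries did not overlap, and per kilobase LGR4 moved from 1.16 to 12.5 CPM with the empty vector, above every other Wnt receptor described here.

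LGR5, a stem cell marker and R-spondin receptor, had no count in untreated empty vector cells and 2.09, 2.29 and 2.65 CPM with Adavivint, at least 125-fold higher. In OES100A9 cells 4 counts in 1 library (0.0473 CPM) stood against 4.29, 4.09 and 3.06 CPM with the drug. LGR5 was silent without the drug and passed the filter on low counts only through the treated groups, so it had to differ and its p is not given. LGR6 was at 0 in all 6 untreated THP-1 libraries and at 0.140, 0.0873 and 0.194 CPM and 0.390, 0.254 and 0.178 CPM with the drug, at least 7.48-fold and 18.1-fold higher, but it was too low for the test. All 3 LGR genes were thus higher in every treated library than in any untreated one.

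RNF43 was at 0.0828, 0.283 and 0.119 CPM in empty vector cells and 1.21, 2.36 and 1.77 CPM with Adavivint, 11.5-fold higher (log2 fold change 3.52, SE 0.42), and 9.88-fold higher with OES100A9. In untreated empty vector cells RNF43 was too low to pass the filter on low counts by itself, so no p is given for its rise. It shares 57.6% of its exon bases with the same-strand readthrough gene AC004687.2, which stood at 3.16 CPM without and 1.13 CPM with the drug in empty vector cells, and 3.10 and 1.67 CPM with OES100A9. How reads were divided between these genes is not stated in the labels, so the RNF43 level is uncertain. ZNRF3, the partner ligase, went the other way, from 15.7, 14.8 and 14.1 CPM to 4.16, 3.56 and 3.04 CPM, 4.02-fold lower (log2 fold change -2.01, SE 0.12, adjusted p = 9.47e-10). With OES100A9 it went from 12.7, 13.1 and 13.3 to 3.83, 3.23 and 3.55 CPM, 3.58-fold lower.

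The co-receptors moved in opposite directions. LRP5 was at 43.0, 39.4 and 36.2 CPM in empty vector cells and 3.07, 4.10 and 4.09 CPM with Adavivint, 10.2-fold lower (log2 fold change -3.35, SE 0.16, adjusted p = 8.23e-11). In OES100A9 cells it went from 39.3, 30.9 and 32.6 to 3.80, 2.34 and 2.90 CPM, 11.0-fold lower (adjusted p = 7.34e-11). LRP6 was at 1.90, 2.55 and 2.89 CPM and 3.98, 3.58 and 3.73 CPM, 1.60-fold higher (adjusted p = 0.00164), and rose 1.31-fold with OES100A9 (adjusted p = 0.0359). Per kilobase, LRP5 was 0.609 and LRP6 0.364 CPM after the drug in empty vector cells, where they had been 6.42 and 0.237. The LRP6 rise with OES100A9 was lost when OES100A9 replicate 1 or any 1 of the 3 treated OES100A9 libraries was left out, with adjusted p up to 0.147.

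**Figure D4:**
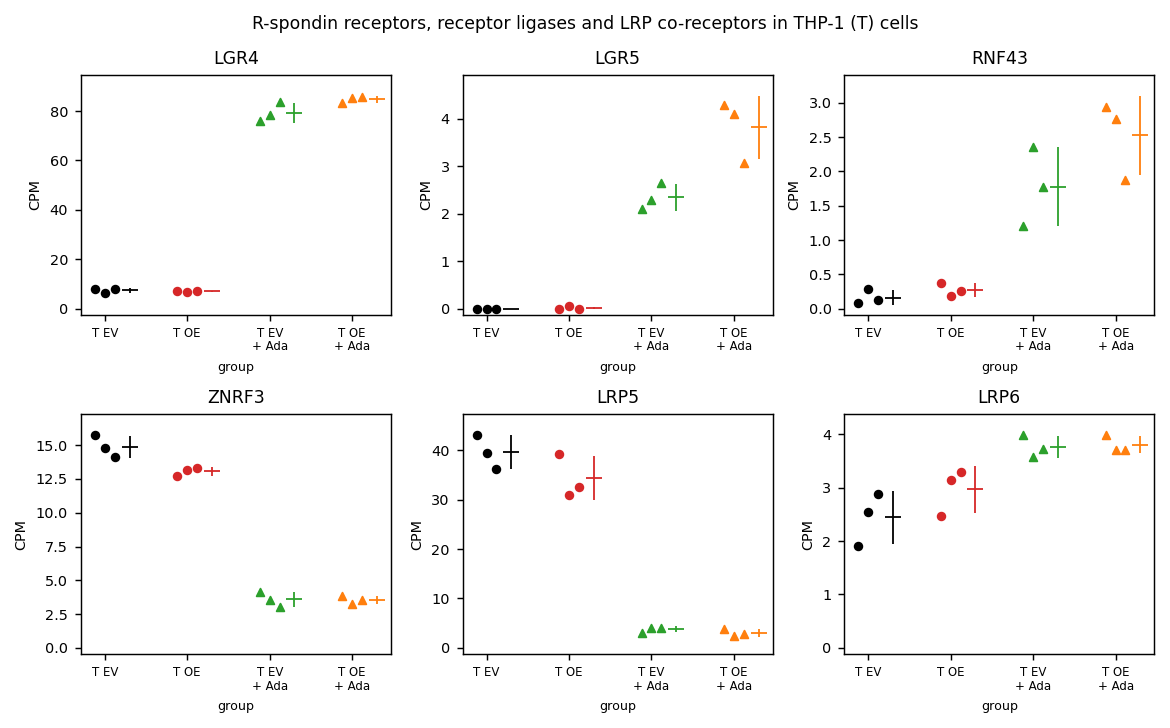
CPM of LGR4, LGR5, RNF43, ZNRF3, LRP5 and LRP6 in the 12 THP-1 libraries (EV empty vector, OE OES100A9, Ada Adavivint); points are libraries, and the bar beside them is the mean with its SD (n = 3). LGR4, LGR5 and RNF43 were higher and ZNRF3 and LRP5 lower in every treated library than in every untreated one.

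The sequences upstream of LGR4 and LRP5, which changed by over 10-fold with Adavivint, of PPARD and of SP5 are printed. Of these, SP5 alone holds the short core that TCF/LEF factors bind. By GENCODE 29 (GRCh38) LGR4 lies at chr11:27365961-27472775, LRP5 at chr11:68312609-68449275 and PPARD at chr6:35342558-35428191, and none of the windows overlaps an exon of its own gene. Each is the 250 bases before the RefSeq start on the gene's strand (GRCh38.p14, RefSeq), with matches to CTTTGA or CTTTGT on either strand in capitals. LGR4 (chr11:27472791-27473040, minus strand) and LRP5 (chr11:68312341-68312590, plus strand) hold no match, and neither does PPARD (chr6:35342308-35342557, plus strand), which changed in every comparison except overexpression under the drug. SP5 (chr2:170715087-170715336, plus strand) holds 4, more than any other member's promoter, and its level was at most 0.178 CPM in any library.
LGR4: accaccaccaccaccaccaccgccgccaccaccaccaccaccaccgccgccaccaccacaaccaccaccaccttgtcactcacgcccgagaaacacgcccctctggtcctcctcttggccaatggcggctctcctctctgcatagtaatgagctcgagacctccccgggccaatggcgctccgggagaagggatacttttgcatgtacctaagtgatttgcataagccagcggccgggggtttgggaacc
LRP5: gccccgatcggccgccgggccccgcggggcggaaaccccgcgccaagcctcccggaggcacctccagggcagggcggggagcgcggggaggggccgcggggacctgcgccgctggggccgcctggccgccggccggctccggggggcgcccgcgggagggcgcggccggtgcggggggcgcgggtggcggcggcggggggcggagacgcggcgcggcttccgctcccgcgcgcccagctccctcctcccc
PPARD: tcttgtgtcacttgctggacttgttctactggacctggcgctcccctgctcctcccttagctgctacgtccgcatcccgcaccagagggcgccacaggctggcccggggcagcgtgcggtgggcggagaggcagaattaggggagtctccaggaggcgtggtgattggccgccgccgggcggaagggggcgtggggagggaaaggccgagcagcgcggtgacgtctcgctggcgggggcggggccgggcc
SP5: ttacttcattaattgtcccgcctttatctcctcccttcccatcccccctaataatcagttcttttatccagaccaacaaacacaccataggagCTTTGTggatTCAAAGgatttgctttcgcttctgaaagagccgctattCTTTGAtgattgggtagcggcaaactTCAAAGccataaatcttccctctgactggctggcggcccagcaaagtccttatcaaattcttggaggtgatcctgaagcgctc
Promoters of 36 of the 49 genes, DKK1 among them, were found in the RefSeq table, with 52 start sites. The core was present in 12 of these 52 (23.1%), against 22.8% of all 35116 promoters of the same length. The members' promoters had a median GC content of 64.2% and a median of 18 CpG dinucleotides, beside 58% and 11 over all promoters. A match is a run of letters and not a bound site, and 250 bases leave out any site elsewhere. Whether the changes with the drug relate to such sites was not tested.

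Frizzled receptors changed in both directions. FZD5 was at 7.86, 9.43 and 8.03 CPM in empty vector cells and 17.5, 16.5 and 16.8 CPM with Adavivint, 2.08-fold higher, and went from 6.18, 7.15 and 6.77 to 15.7, 16.4 and 14.9 CPM with OES100A9, 2.41-fold (adjusted p = 6.73e-08 and 9.02e-09). FZD6 went from 6.82, 7.90 and 9.52 to 4.19, 3.47 and 3.60 CPM with the empty vector and from 8.13, 9.46 and 9.39 to 4.06, 3.97 and 4.46 CPM with OES100A9, 2.08-fold and 2.10-fold lower (adjusted p = 4.01e-06 and 3.26e-06). FZD2 went from 9.85, 13.3 and 12.8 to 5.98, 5.67 and 5.77 CPM and from 14.2, 13.0 and 12.5 to 6.04, 5.57 and 5.71 CPM, 1.99-fold and 2.22-fold lower. None of these 3 receptors had overlapping treated and untreated libraries. FZD3, FZD4 and FZD7 rose less than 2-fold with both vectors, by 1.34-, 1.69- and 1.37-fold with the empty vector and by 1.44-, 1.30- and 1.59-fold with OES100A9. The FZD4 rise with OES100A9 (adjusted p = 0.0364) was lost when any 1 of the 3 untreated OES100A9 libraries or treated replicate 3 was left out, with adjusted p up to 0.195. FZD1 fell 1.31-fold with the empty vector and was at a log2 fold change of -0.08 (SE 0.067, adjusted p = 0.301) with OES100A9. FZD8 stayed at or below 0.199 CPM in every library.

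Of the ligands and secretion factors, WNT5B, a ligand mostly tied to signalling without beta-catenin, fell most. It went from 1.24, 2.06 and 1.87 to 0.209, 0.393 and 0.388 CPM with the empty vector, 4.98-fold lower, and from 2.21, 2.51 and 2.71 to 0.286, 0.458 and 0.335 CPM with OES100A9, 6.65-fold lower (adjusted p = 2.58e-06 and 3.85e-07). WNT10B, a ligand of the beta-catenin branch, went from 6.08, 5.68 and 6.45 to 2.44, 2.55 and 2.33 CPM and from 5.07, 4.97 and 4.95 to 2.37, 3.23 and 2.72 CPM, 2.40-fold and 1.75-fold lower. PORCN went from 4.59, 5.37 and 5.56 to 1.86, 2.27 and 1.77 CPM and from 5.23, 4.91 and 4.94 to 1.59, 1.88 and 1.65 CPM, 2.54-fold and 2.85-fold lower (adjusted p = 4.70e-07 and 1.46e-07). All treated libraries lay below all untreated ones for these 3 genes.

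WNT6 fell 1.43-fold and 1.92-fold. WNT10A rose 8.01-fold and 3.19-fold but stayed at or below 1.14 CPM, and WNT11 rose 2.91-fold with the empty vector at no more than 0.330 CPM in any library. WLS rose 1.81-fold with the empty vector (adjusted p = 0.00912) and was at a log2 fold change of 0.39 (adjusted p = 0.205) with OES100A9. WNT5A was at 0.116, 0.121 and 0.0398 CPM in empty vector cells and had no count in any of the 6 treated libraries, at least 4.16-fold lower with the empty vector. WNT10A and WNT11 were too low in untreated empty vector cells to pass the filter on low counts by themselves, so the filter favoured their rise there. Several of these low calls rested on single libraries. WNT11 passed in 6 of 12 fits without 1 library (adjusted p up to 0.138, without empty vector replicate 1). WNT6 with the empty vector was lost without empty vector replicate 2 or treated replicate 1 (adjusted p up to 0.103), and WNT10A with OES100A9 without untreated or treated replicate 2 (adjusted p up to 0.0632).

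Among the transducers the 3 Dishevelled genes fell and CSNK1D rose. DVL2 was at 33.6, 33.2 and 33.9 CPM and 16.5, 17.7 and 15.0 CPM with the drug in empty vector cells, 1.98-fold lower, and went from 34.7, 30.1 and 29.9 to 14.9, 13.7 and 14.4 CPM with OES100A9, 2.13-fold lower (adjusted p = 1.56e-08 and 5.53e-09). DVL1 and DVL3 fell 1.20- and 1.17-fold with the empty vector and 1.20- and 1.24-fold with OES100A9. The casein kinase CSNK1D, which phosphorylates Dishevelled among other substrates, was at 109, 105 and 102 CPM and 162, 169.9 and 179 CPM, 1.67-fold higher, and rose 1.99-fold with OES100A9. Its relative CSNK1E fell 1.10-fold with the empty vector (adjusted p = 0.0278) and was at a log2 fold change of 0.01 (adjusted p = 0.886) with OES100A9. The CSNK1E fall was lost without empty vector replicate 1 or 2 or treated replicate 1, with adjusted p up to 0.0998, and CSNK1E shares 21.1% of its exon bases with the readthrough gene TPTEP2-CSNK1E.

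Among the TCF/LEF factors TCF7L1, which mainly represses targets in the absence of beta-catenin, rose. It was at 0.778, 1.66 and 1.14 CPM in empty vector cells and 3.70, 3.40 and 4.11 CPM with Adavivint, 3.27-fold higher, and at 1.35, 1.41 and 0.987 and 4.87, 3.97 and 4.17 CPM with OES100A9, 3.57-fold higher (adjusted p = 9.27e-06 and 3.80e-06). TCF7L2, the most abundant of the 4, rose 1.41-fold with the empty vector and was at a log2 fold change of 0.18 (adjusted p = 0.0948) with OES100A9. TCF7 passed the test with neither vector, at 1.15 and 1.12 CPM without and 0.852 and 1.16 CPM with the drug (means of 3). LEF1 stayed at or below 0.182 CPM in every library.

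The 4 members listed as co-repressors or inhibitors of the TCF and beta-catenin complex fell with both vectors (41.1% and 41.3% of all genes did). Co-repressors outside the 49 genes are not covered by this count. TLE4 was at 41.6, 48.6 and 49.6 CPM and 18.7, 19.4 and 18.3 CPM with the drug, 2.39-fold lower, and went from 51.5, 48.9 and 52.1 to 19.7, 21.0 and 19.3 CPM with OES100A9, 2.46-fold lower (adjusted p = 2.75e-10 and 1.85e-10). CTNNBIP1, a small protein that keeps beta-catenin from TCF factors, went from 23.2, 24.0 and 23.9 to 11.8, 12.0 and 10.4 CPM and from 28.4, 28.2 and 28.7 to 11.2, 11.6 and 10.6 CPM, 2.00-fold and 2.47-fold lower (adjusted p = 5.00e-09 and 2.77e-10). TLE3 fell 1.67-fold and 1.43-fold, and TLE1 1.32-fold and 1.24-fold. The TLE1 fall with OES100A9 passed in 5 of 12 fits without 1 library (adjusted p up to 0.187, without treated OES100A9 replicate 3).

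The co-activators that tether to beta-catenin split by paralog. BCL9 was at 13.8, 17.2 and 14.3 CPM and 4.42, 3.34 and 3.75 CPM with the drug, 3.80-fold lower, and went from 13.1, 12.7 and 12.2 to 1.93, 2.85 and 2.25 CPM with OES100A9, 5.23-fold lower (adjusted p = 1.03e-08 and 1.53e-09). Its paralog BCL9L rose 1.40-fold, to 20.1, 20.7 and 21.6 CPM, and 1.57-fold, to 20.9, 16.9 and 19.3 CPM with OES100A9. Of BCL9L, 37.5% of its exon bases lie opposite CXCR5, which stood at no more than 0.175 CPM in any library. PYGO1, which reads methylated histone tails through its PHD finger and binds BCL9 proteins, went from 1.64, 1.82 and 1.77 to 3.88, 3.38 and 3.34 CPM and from 1.83, 1.64 and 1.88 to 2.94, 3.51 and 3.12 CPM, 2.10-fold and 1.85-fold higher (adjusted p = 6.73e-06 and 4.20e-05). The far more abundant PYGO2 fell 1.46-fold and 1.45-fold. Each pair of paralogs thus held 1 gene that rose and 1 that fell, with both vectors.

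The remaining inhibitors fell. NKD2 was at 4.11, 5.68 and 6.31 CPM and 1.49, 1.75 and 1.21 CPM with the drug, 3.49-fold lower, and went from 9.94, 9.03 and 8.31 to 1.54, 1.47 and 1.92 CPM with OES100A9, 5.34-fold lower (adjusted p = 4.03e-07 and 1.52e-08). NKD1, also an inhibitor of Dishevelled, went from 3.94, 3.52 and 3.90 to 1.44, 1.05 and 1.72 CPM and from 3.64, 3.09 and 3.82 to 1.72, 1.65 and 1.74 CPM, 2.61-fold and 2.00-fold lower. APCDD1, a membrane protein that binds Wnts and LRP5, went from 1.19, 1.19 and 1.33 to 0.512, 0.327 and 0.517 CPM and from 1.17, 1.18 and 1.39 to 0.807, 0.381 and 0.379 CPM, 2.64-fold and 2.32-fold lower. No treated library reached an untreated one in these 3 genes. NOTUM, an enzyme that strips the lipid from Wnts, stayed at or below 0.378 CPM.

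Among the other target genes SOX4 and TNFRSF19 fell and PPARD rose. SOX4 was at 116, 135 and 126 CPM and 37.1, 37.5 and 30.9 CPM with the drug, 3.46-fold lower, and went from 112, 121 and 126 to 32.9, 33.9 and 36.4 CPM with OES100A9, 3.38-fold lower (adjusted p = 4.75e-11 and 5.39e-11). TNFRSF19 went from 1.74, 1.41 and 1.31 to 0.233, 0.284 and 0.215 CPM and from 1.63, 1.56 and 1.37 to 0.104, 0.127 and 0.268 CPM, 5.87-fold and 8.57-fold lower. PPARD went from 19.8, 21.3 and 25.2 to 43.7, 49 and 51.3 CPM and from 28.6, 28.7 and 28.6 to 46.1, 45.8 and 46.6 CPM, 2.25-fold and 1.66-fold higher (adjusted p = 3.51e-09 and 5.09e-07). In these 3 genes treated and untreated libraries lay apart with both vectors.

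S100A9 overexpression in untreated THP-1 cells changed few members, and none by 2-fold. Of 42 tested, 3 rose (14.9% of all 15403 genes tested did) and 6 fell (13.0% of all genes). The median log2 fold change of the members was -0.01, beside 0.02 over all genes. The inhibitor NKD2 moved most, from 4.11, 5.68 and 6.31 CPM to 9.94, 9.03 and 8.31 CPM, 1.70-fold higher (log2 fold change 0.77, SE 0.17, adjusted p = 0.00492). PPARD went from 19.8, 21.3 and 25.2 to 28.6, 28.7 and 28.6 CPM, 1.30-fold higher (log2 fold change 0.38, SE 0.077, adjusted p = 0.00325). CTNNBIP1 went from 23.2, 24.0 and 23.9 to 28.4, 28.2 and 28.7 CPM, 1.21-fold higher (adjusted p = 0.00884). The libraries of the vectors did not overlap in any of the 3.

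Of the 6 that fell, 3 were Frizzled receptors. FZD1 went from 22.8, 23.9 and 22.3 to 18.4, 19.0 and 19.1 CPM, 1.22-fold lower (adjusted p = 0.00672), FZD4 from 1.92, 2.00 and 2.11 to 1.49, 1.38 and 1.51 CPM, 1.37-fold lower (adjusted p = 0.0430), and FZD5 from 7.86, 9.43 and 8.03 to 6.18, 7.15 and 6.77 CPM, 1.25-fold lower (adjusted p = 0.0185). The co-repressor TLE3 went from 97.4, 102 and 94.2 to 86.2, 76.5 and 81.0 CPM, 1.20-fold lower (adjusted p = 0.00200). BCL9L went from 14.2, 17.2 and 14.9 to 12.8, 12.5 and 12.3 CPM and CSNK1D from 109, 105 and 102 to 99.1, 90.2 and 87.9 CPM, 1.22-fold and 1.14-fold lower (adjusted p = 0.0252 and 0.0222). All 6 had libraries that did not overlap, which held for 15 of the 42 members tested, called or not. The calls of NKD2, PPARD, CTNNBIP1, FZD1 and TLE3 held in all 12 fits that left out 1 library. FZD4 was lost in 8 of the 12, including without any 1 of the 6 untreated libraries (adjusted p up to 0.134), FZD5 without empty vector replicate 2 or OES100A9 replicate 1 (up to 0.0845), CSNK1D without empty vector replicate 1 or 2 or OES100A9 replicate 2 or 3 (up to 0.0989), and BCL9L without empty vector replicate 2 or OES100A9 replicate 2 or 3 (up to 0.113).

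Under Adavivint, OES100A9 and empty vector cells differed in 2 members, both lower with OES100A9 (4.80% of all genes were lower and 3.69% higher). At an unadjusted p below 0.05, 4 members were lower and 1 higher, and DESeq2 called 2 lower and 1 higher. FZD4 was at 3.19, 3.56 and 3.12 CPM with the empty vector and 1.64, 1.70 and 2.19 CPM with OES100A9, 1.78-fold lower (log2 fold change -0.83, SE 0.16, adjusted p = 0.00656). BCL9 was at 4.42, 3.34 and 3.75 and 1.93, 2.85 and 2.25 CPM, 1.64-fold lower (log2 fold change -0.71, SE 0.15, adjusted p = 0.0126). Neither gene's libraries overlapped. The BCL9 call was lost without replicate 1 of either treated group, with adjusted p up to 0.0540. FZD4 lies opposite PRSS23, which shares 18.9% of its exon bases and stood at no more than 0.366 CPM in any library. The drug comparisons share libraries with the vector comparisons, so their values are not independent of each other.

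The size of the Adavivint effect itself differed between the vectors in 5 members of 42: it was more positive with OES100A9 in 3 (8.04% of all genes were) and more negative in 2 (11.2% of all genes). PPARD differed most: its rise was 2.25-fold with the empty vector and 1.66-fold with OES100A9, a difference of -0.44 on the log2 scale (SE 0.11, adjusted p = 0.0143), and the call held in all 12 fits that left out 1 library. The PPARD libraries of the vectors overlapped under the drug and did not overlap without it. CTNNBIP1 had a more negative effect with OES100A9, with a difference of -0.30 on the log2 scale (adjusted p = 0.0416). FZD1, CSNK1D and TLE3 had more positive effects with OES100A9, by 0.32, 0.25 and 0.22 (adjusted p = 0.0344, 0.0366 and 0.0407). Under the drug FZD1 stood at 16.5, 16.2 and 18.2 CPM with the empty vector and 17.3, 16.6 and 18.0 CPM with OES100A9. CSNK1D stood at 162, 169.9 and 179 and 172, 179 and 183 CPM, and TLE3 at 55.8, 57.6 and 56.3 and 54.7, 55.4 and 54.7 CPM. The untreated values of these 3 genes are those given for the overexpression comparison, where each was lower with OES100A9. Apart from PPARD these calls held in 1 to 4 of the 12 fits without 1 library, with adjusted p up to 0.113. With library totals in place of TMM scaling, 2 members passed, both more negative with OES100A9. The untreated libraries enter both this difference and the overexpression comparison. Of the other 4 members called with 1 vector only, TCF7L2, CSNK1E, WLS and WNT11, none passed this test of the difference (adjusted p = 0.129, 0.196, 0.438 and 0.415).

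**Figure D5:**
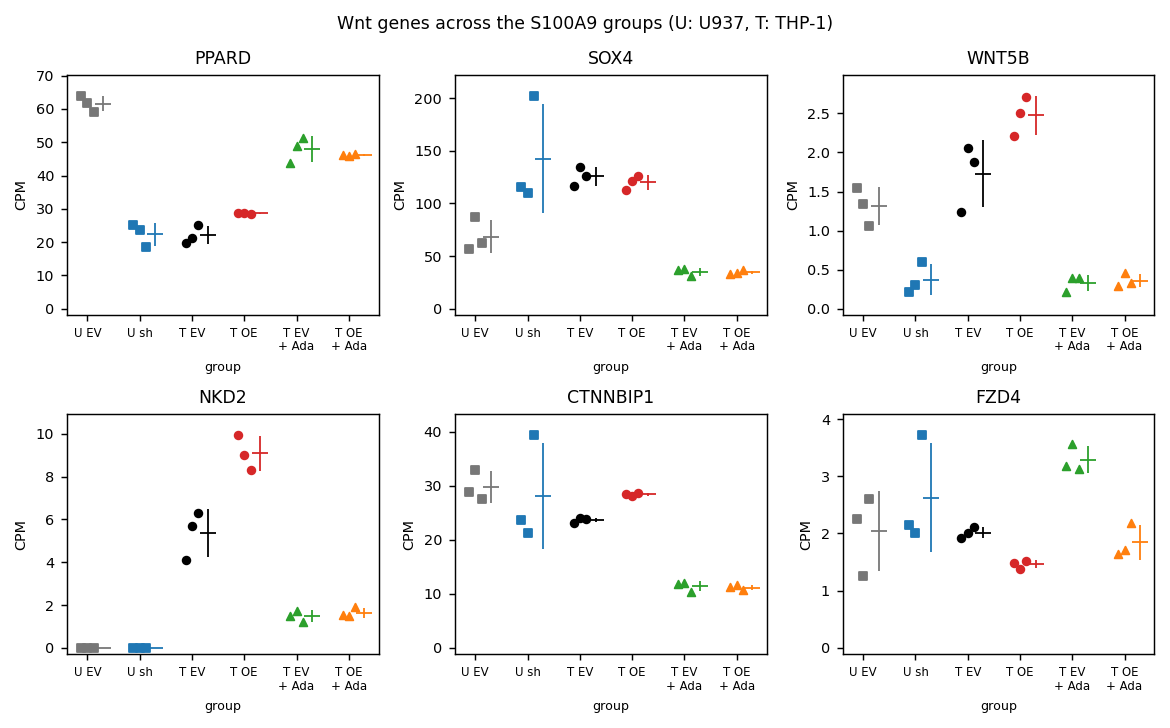
CPM of PPARD, SOX4, WNT5B, NKD2, CTNNBIP1 and FZD4 in the 18 libraries (U U937, T THP-1, EV empty vector, sh shS100A9, OE OES100A9, Ada Adavivint); points are libraries, and the bar beside them is the mean with its SD (n = 3). PPARD lay at 59.2 to 63.8 CPM in U937 empty vector cells and 18.4 to 25 CPM in shS100A9 cells, and 1 shS100A9 library (replicate 3) lay above the other U937 libraries in SOX4, CTNNBIP1 and FZD4.

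S100A9 knockdown in U937 cells lowered 2 of the 33 members tested, PPARD and PYGO1, and raised none (1.54% of all 13016 genes tested fell and 0.230% rose). At an unadjusted p below 0.05, 4 members were lower and 1 higher, and DESeq2 called 3 lower and 1 higher. The median log2 fold change of the members was 0.10, beside 0.01 over all genes. PPARD went from 63.8, 61.9 and 59.2 CPM to 25, 23.7 and 18.4 CPM, 2.77-fold lower (log2 fold change -1.47, SE 0.14, adjusted p = 0.00770). PYGO1 was at 0.196, 0.236 and 0.229 CPM and had no count in any shS100A9 library, at least 14.9-fold lower. PYGO1 was silent with shS100A9 and passed the filter on low counts only through the empty vector group, so it had to differ and its p is not given. In both genes the groups did not overlap, and PYGO1 was close to the limit of detection. The neutrophil elastase gene ELANE, a myeloid marker, fell 3.70-fold with shS100A9, the only call among the 11 of 12 myeloid markers tested. LYZ, CSF1R and SPI1 were 2.33-, 2.26- and 1.31-fold lower in libraries that did not overlap. Their unadjusted p was below 0.05 and their adjusted p 0.124, 0.212 and 0.130. PTPRC, CD33, MPO and CTSG were higher, by at most 1.36-fold and without passing. The part of these markers in the results was not tested. PPARD was lost when empty vector replicate 1 or 3 or shS100A9 replicate 2 was left out (adjusted p up to 0.0579), and PYGO1 whichever of the 6 libraries was left out (adjusted p up to 0.182). PPARD thus fell with S100A9 knockdown in U937 and rose with S100A9 overexpression in THP-1, in comparisons that share no library.

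Without the 2 U937 libraries that stood apart, 2 libraries per group remained and more genes passed: 3 of 34 members rose and 8 fell, beside 15.2% and 17.7% of 13055 genes. PPARD fell 2.55-fold (adjusted p = 2.21e-05) and PYGO1 again fell. SOX4 rose 1.88-fold (adjusted p = 8.25e-05); over all 6 libraries it was at 56.6, 86.7 and 62.5 and 116, 109.7 and 202 CPM (adjusted p = 0.149). WNT5B fell 5.02-fold (adjusted p = 0.00296), and its values over all libraries were 1.54, 1.34 and 1.06 and 0.217, 0.298 and 0.600 CPM (adjusted p = 0.119). Neither gene's libraries overlapped over all 6, where neither gene passed the test. The ligase ZNRF3 fell 1.48-fold, FZD5, DVL1, TLE3 and CTNNBIP1 fell by 1.14- to 1.26-fold, and BCL9L and FZD1 rose 1.25- and 1.28-fold. With S100A9 overexpression in THP-1 cells FZD5 and TLE3 had also fallen, whereas CTNNBIP1, BCL9L and FZD1 had moved the opposite way.

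A further 73 genes of the pathway were listed and 69 had rows. In U937 cells none of the 46 tested changed with knockdown in edgeR's test, and at an unadjusted p below 0.05 1 was higher and 1 lower. With OES100A9, 3 of 61 rose and 8 fell (4.92% and 13.1%, beside 14.9% and 13.0% of all genes). With Adavivint, 30 rose and 25 fell in empty vector cells (49.2% and 41%, beside 44.2% and 41.1%), and 30 rose and 22 fell in OES100A9 cells (49.2% and 36.1%, beside 43.4% and 41.3%). APC, the scaffold of the destruction complex, was at 42.9, 46.4 and 45.1 CPM and 376, 360.3 and 372 CPM with the drug, 8.53-fold higher, while AMER1, which recruits APC to the membrane, fell 4.92-fold and the kinase GSK3B rose 2.50-fold. CTNNB1, the beta-catenin gene, rose 1.34-fold and 1.51-fold. The target gene MYC went from 367, 353 and 336 to 16.9, 18.0 and 14.6 CPM, 20.7-fold lower, and fell 14.9-fold with OES100A9, and VEGFA and CD44 fell 3.19- and 3.13-fold with the empty vector. AXIN2, a widely used readout of beta-catenin activity, passed the test in neither drug comparison, at 0.811, 0.889 and 0.418 and 0.326, 0.546 and 0.969 CPM with the empty vector (adjusted p = 0.723, and 0.834 with OES100A9). CCND1 was at a log2 fold change of -0.12 with the empty vector (adjusted p = 0.398) and rose 1.60-fold with OES100A9, a difference that itself passed (adjusted p = 0.0122).

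Receptors and ligands outside the 49 genes also moved from very low levels. The receptor kinase ROR1 went from a mean of 0.0343 to 6.92 CPM and the pseudokinase PTK7 from 0.300 to 4.83 CPM in empty vector cells, whereas the Wnt receptor RYK fell 2.37-fold. WNT2B rose 8.71-fold, WNT16 went from a mean of 0.0380 to 4.16 CPM and WNT8A from 0.0310 to 1.73 CPM. Of the nuclear partners, SMARCA4, an ATPase of chromatin remodelling, fell 2.70-fold and the acetyltransferase EP300 rose 2.29-fold. RSPO2, an R-spondin ligand of the LGR receptors and named here after its values were seen, went from 1.57, 1.49 and 1.65 to 3.47, 3.60 and 4.33 CPM in empty vector cells and from 1.03, 0.935 and 0.939 to 6.69, 5.34 and 5.00 CPM in OES100A9 cells, a 2.49-fold and 6.04-fold rise whose difference passed the test (adjusted p = 0.00254).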

How the data were processed

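Read counts per gene of 18 libraries from total RNA of U937 and THP-1 cells were analysed, 3 in each of 6 groups. The deposited table holds whole-number counts; reads were aligned with HISAT2 2.0.4, per the submitters' processing notes. The sources used here do not give the counting tool, genome build, annotation or strand setting. Ensembl IDs were matched to symbols for 18642 of 18670 genes; positions are those of GENCODE 29 (GRCh38). Totals were 38433169 to 84409062 counts per library.

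Genes were tested with edgeR 4.0.16 (quasi-likelihood F test, TMM factors, filterByExpr, Benjamini-Hochberg adjustment over all genes tested, R 4.3.3) in 3 fits: the 6 U937 libraries, the 12 THP-1 libraries and the 6 empty vector libraries. The procedure was checked on simulated data. SE was taken as the absolute log2 fold change over the root of the F statistic. A fold against a group with no count was taken against 3 counts over the group and covers counting error only. The members, gene lists and tests were chosen with earlier results of these data known. Library values are printed for members that changed in an S100A9 comparison or in its interaction with the drug, and for those at 1 CPM or more that changed at least 2-fold with Adavivint. Of the other pathway genes, AXIN2, CTNNB1, MYC, CCND1 and up to 3 per list by smallest p are named. Alternatives were DESeq2 1.42.0, other scalings and filters, a replicate block and leaving out libraries.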

Additional observations from a re-analysis of the deposited data

Results flagged for a closer look

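The effect of Adavivint differed between OES100A9 and empty vector cells in 5 members by edgeR's test of the difference itself (OES100A9 minus empty vector, 3 libraries in each of 4 groups). The log2 difference was 0.315 for FZD1, 0.252 for CSNK1D, 0.222 for TLE3, -0.304 for CTNNBIP1 and -0.438 for PPARD. PPARD passed in all 12 fits that left out 1 library.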

How the results depend on the processing

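No called member changed direction under the alternatives run. CTNNBIP1 in the U937 knockdown, which did not pass with all 6 libraries, had a log2 fold change of -0.41 to 0.084 without 1 library, above 0 without shS100A9 replicate 1 or 2. The counts of members called with Adavivint (41 with the empty vector, 36 with OES100A9) and between the lines (19) moved by less than 1.5 times. In the U937 knockdown, 2 members were called, against 4 with DESeq2, 1 without a filter, 1 with at least 1 CPM in 3 libraries, 11 without both libraries that stood apart, and 0 to 2 without 1 library. The difference between drug effects had 5, against 2 with library totals, 2 without a filter, and 1 to 4 without 1 library. The overexpression comparison had 9, against 5 to 10 without 1 library (5 without empty vector replicate 2), and the same comparison under the drug 2, against 1 to 2. With the replicate block, 0 of the 2 U937 members and 1 of the 5 differences between drug effects were called. Replicate numbers did not pair the samples: correlations of same-numbered deviations were -0.51 to 0.24 in U937, -0.097 to 0.093 in THP-1 and -0.22 to 0.30 between the lines. The 2 U937 libraries that stood apart had deviations that correlated at 0.50 across the groups. Deviations of empty vector replicates 1 and 3 correlated at 0.24 to 0.44 with those of shS100A9 replicates 1 and 2. What these libraries share is not stated in the labels. The cause of the changes in the counts of members called was not tested. Depth limits detection to about 0.0148 to 0.0245 CPM per group.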
